A study of Mus musculus with 4 samples.

Results

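Collagen chains were taken as every mouse gene whose RefSeq symbol reads Col, a type number, the letter a and a chain number, reached through the accession that each array probe targets. The rule found 63 probes of 43 genes among 39429 probes, of which 27655 carried a symbol and stood for 20971 named genes. A probe was tested when it had a ratio on at least 3 of the 4 arrays, which held for 56 collagen probes of 41 genes. For 37 of these genes the brightest probe, which represents the gene, was marked by the scanner software as well above background in Cy5 and in Cy3 on every array, called fully measured below, against 18349 of 25694 genes in all, a number that counts probes without a symbol by their accession or probe name. The tested genes fall into 8 fibrillar chains, 7 cartilage chains, 8 basement membrane chains, 5 beaded filament chains, 4 fibril-associated chains, 4 transmembrane chains and 5 anchoring, network and other chains. Col6a4 of the beaded filament class and Col19a1 of the fibril-associated class had too few ratios for a test, and Col12a1 was not analysed here.

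Every array compared 2 ear extracts, 1 in Cy5 whose source name marks it as DEP, for diesel exhaust particles, and 1 in Cy3 whose source name marks it as control. The treatments "DEP" and "none" are both listed under the Cy5 channel and no treatment is listed under Cy3, so the groups rest on the source names. The study used 9 male BALB/c mice aged 6 to 10 weeks, DEPs were inhaled for 1 h on each of 5 days, and temporal bone with the middle ear was collected on day 14. The number of mice behind an extract and what control mice inhaled are not given, so p-values measure the spread between these 4 arrays. The dyes were not swapped, so a dye preference of a probe and an effect of exposure cannot be told apart. Ratios are log2 values of DEP over control as the source names assign the dyes, a direction opposite to the one that the study gives the genes it names. For the genes it also measured by qRT-PCR, the study reports the same directions as for its arrays. If the dyes were the other way round, every sign below and every highest or lowest ratio or mean would swap.

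Collagens are the main structural proteins of the extracellular matrix, and their chains wind around each other into rope-like helices in which glycine recurs at a fixed spacing. Fibrillar collagens of types I, III and V bear the tension of bone, tendon and mucosa, type II with types IX and XI builds cartilage, type X marks the hypertrophic cartilage that precedes bone, and type IV makes the network of basement membranes under epithelia and around vessels, muscle and nerve. The ear holds all of these, since the ossicles and otic capsule are bone, the inner ear carries collagens in its tectorial and basilar membranes, and the middle ear is lined by mucosa on a basement membrane.

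The arrays differed from each other across the whole table. Between 31315 and 33554 probes gave a ratio on an array. Over all probes with a ratio on both arrays of a pair, r ran from -0.22, between arrays 1 and 4, to 0.61, between arrays 1 and 2. Nervous tissue markers were the most uneven of the lists, with median ratios of 12 neuronal genes of -2.40, -1.66, -0.57 and 0.25 on arrays 1 to 4. Their part in the collagen ratios was not tested. In extracts of whole tissue, fewer cells of a type and less RNA per cell cannot be told apart.

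In the authors' ratios no collagen chain passed the test between the channels labelled DEP and control after adjustment. Of 41 genes, 0 had a mean ratio past 2-fold in either direction, beside 6.75% of all 25694 genes tested. After adjustment limma called 0 chains at a p under 0.05, as it did 0% of all genes. The smallest adjusted p of a brightest probe was 0.28. Before adjustment 0 chains had a limma p under 0.05 for the brightest probe, beside 18.7% of all genes. An ordinary least-squares test without limma's moderation gave 1, Col4a6, beside 15.5% of all genes. Dimmer probes of Col15a1 and Col9a1 had a limma unadjusted p of 0.0048 and 0.00722 and an adjusted p of 0.145 and 0.158. Mean ratios lay above 0 for 20 chains and below 0 for 21, between -0.79 and 0.83, and exceeded their own SD over arrays for 3. Normexp background correction with each array centred at its median ratio put 2 chains past 2-fold, beside 2.36% of all genes. In that setting limma gave 8 chains an unadjusted p under 0.05, beside 37.1%, and 1 an adjusted p under 0.05, beside 11.6%.

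The ratios of the chains spread widely between arrays. Among the 37 fully measured chains, the median SD over arrays was 0.44, against 0.28 for all fully measured genes. A ratio of the same sign on all 4 arrays was seen for 3 of 40 chains with 4 ratios, beside 28.7% of all such genes. Col4a3 and Col4a6 were above 0 throughout, beside 17.2% of all such genes, and Col18a1 was below 0 throughout, beside 11.5%, though not after normexp background correction and centring of each array at its median ratio. Over all chains the median ratio was -0.37 on array 1, 0.21 on array 2, -0.20 on array 3 and 0.25 on array 4, with 9, 33, 12 and 31 of 41 chains above 0. After normexp and centring the median on array 1 was -0.06 and that on array 3 turned to 0.16, with 29 of 41 chains above 0.

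**Figure D1:**
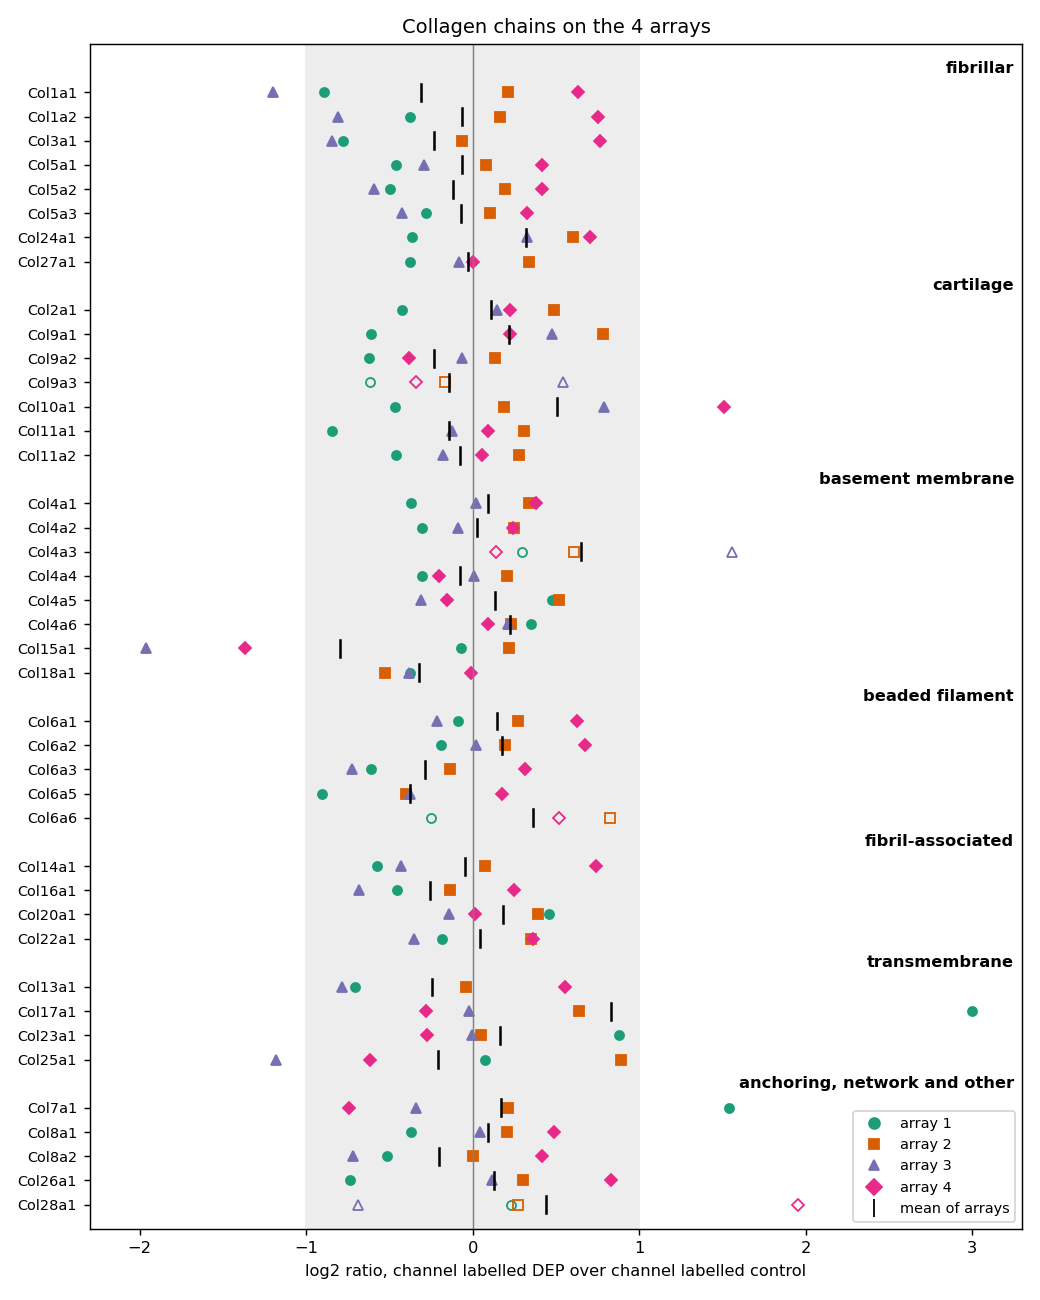
Log2 ratio, DEP over control, for the 41 tested collagen chains, 1 symbol per array and a bar at the mean; open symbols are chains that were not fully measured and the grey band is 2-fold either way. All means lie inside the band, and in the authors' ratios plotted here, though not after normexp and centring, all fibrillar chains sit left of 0 on array 1.

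Fibrillar chains had ratios that changed sign between arrays. In the authors' ratios their median ratio was -0.42 on array 1, 0.18 on array 2, -0.51 on array 3 and 0.52 on array 4, with 0, 7, 1 and 8 of 8 chains above 0. The median of their mean ratios was -0.07, which turned to 0.34 after normexp and centring, and the class medians had an SD of 0.49 over arrays. Col1a1, the major chain of type I collagen in bone and tendon, had processed signals of 45340, 49770, 30190 and 61970 in the channel labelled DEP and of 84120, 42980, 69440 and 39990 in the control channel of arrays 1 to 4. The channels overlapped, since DEP was the higher channel on arrays 2 and 4 and the lower on arrays 1 and 3. Its log2 ratios were -0.89, 0.21, -1.20 and 0.63, which gave a mean of -0.31 ± 0.87 (SD, n = 4; limma's adjusted p = 0.649) that turned to 0.57 after normexp and centring. Leaving out array 1, 2, 3 or 4 gave means of -0.12, -0.49, -0.02 and -0.63.

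Col1a2 encodes the other chain of type I collagen, and its ratios of -0.38, 0.17, -0.81 and 0.75 took the same signs as those of Col1a1. Their mean was -0.07 ± 0.67 (SD, n = 4; limma's adjusted p = 0.911). Col3a1, the chain of the type III fibrils of skin, vessels and healing tissue, had ratios of -0.78, -0.06, -0.84 and 0.76 and a mean of -0.23 ± 0.75, which turned to 0.43 after normexp and centring. The 3 chains thus shared their low ratios on arrays 1 and 3 and their high ratios on array 4.

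The bases before the start site of Col1a2 and Col3a1 are shown because both genes had their lowest ratio on array 3 and their highest on array 4. They come from the RefSeq promoter table of build GRCm38.p6, at chr6:4505368-4505617 on the plus strand for Col1a2 and chr1:45311288-45311537 on the plus strand for Col3a1. Capitals mark the motifs searched on both strands, which are CCAAT or its reverse complement ATTGG, then GGGCGG or its reverse complement CCGCCC, then TATAAA or its reverse complement TTTATA.
Col1a2: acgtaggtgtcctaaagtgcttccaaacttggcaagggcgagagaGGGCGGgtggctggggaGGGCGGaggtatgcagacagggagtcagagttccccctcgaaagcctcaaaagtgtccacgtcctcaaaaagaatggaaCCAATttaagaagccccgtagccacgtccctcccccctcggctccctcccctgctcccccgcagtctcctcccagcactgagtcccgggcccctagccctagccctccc
Col3a1: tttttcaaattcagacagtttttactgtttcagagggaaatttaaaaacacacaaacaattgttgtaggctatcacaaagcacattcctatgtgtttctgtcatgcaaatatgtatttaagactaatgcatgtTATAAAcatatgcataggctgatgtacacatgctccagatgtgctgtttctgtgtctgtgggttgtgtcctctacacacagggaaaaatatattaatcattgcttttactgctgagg
The Col1a2 window holds 1 CCAAT and 2 GGGCGG and no TATAAA, while the Col3a1 window holds 1 TATAAA and neither of the others. Its GC content is 62.0% for Col1a2 and 35.2% for Col3a1, so these windows have little in common in the features searched. A match of such short letters is a description and not a binding site.

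Type V collagen, which limits the width of type I fibrils, took the signs of Col1a1 on each array. Col5a1 had -0.46, 0.08, -0.30 and 0.42, Col5a2 had -0.50, 0.20, -0.59 and 0.42, and Col5a3 had -0.28, 0.10, -0.42 and 0.33 on arrays 1 to 4. The means of the type V chains lay between -0.12 and -0.06, with SDs of 0.39, 0.50 and 0.34, and turned to 0.33, 0.06 and 0.26 after normexp and centring. Col24a1, a fibrillar chain of bone, was below 0 on array 1 alone, with -0.36, 0.60, 0.33 and 0.70 and a mean of 0.32 ± 0.48. Col27a1, a fibrillar chain of cartilage, had -0.37, 0.34, -0.08 and 0.00 and a mean of -0.03 ± 0.29. The smallest adjusted p of the class was 0.453, from Col24a1.

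In a count chosen after the ratios had been seen, the highest ratio was on array 4 and the lowest on array 1 or array 3 for 7 of 8 fibrillar chains, with Col27a1 the exception. The same held for 20 of 37 fully measured chains, beside 24.1% of all fully measured genes and 26.7% of those with a symbol. After normexp background correction, with loess or with each array centred at its median ratio, the fibrillar count stayed at 7 of 8. The share of fully measured genes with a symbol was 24.2% and 20.9%. The centring moved the fibrillar medians of arrays 1 and 3 above 0, to 0.01 and 0.16. Normexp with centring gave Col1a2 a mean of 1.02 with a limma adjusted p of 0.0475, the only adjusted p under 0.05 of a chain under any setting tried. With it limma called 11.6% of all genes.

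**Figure D2:**
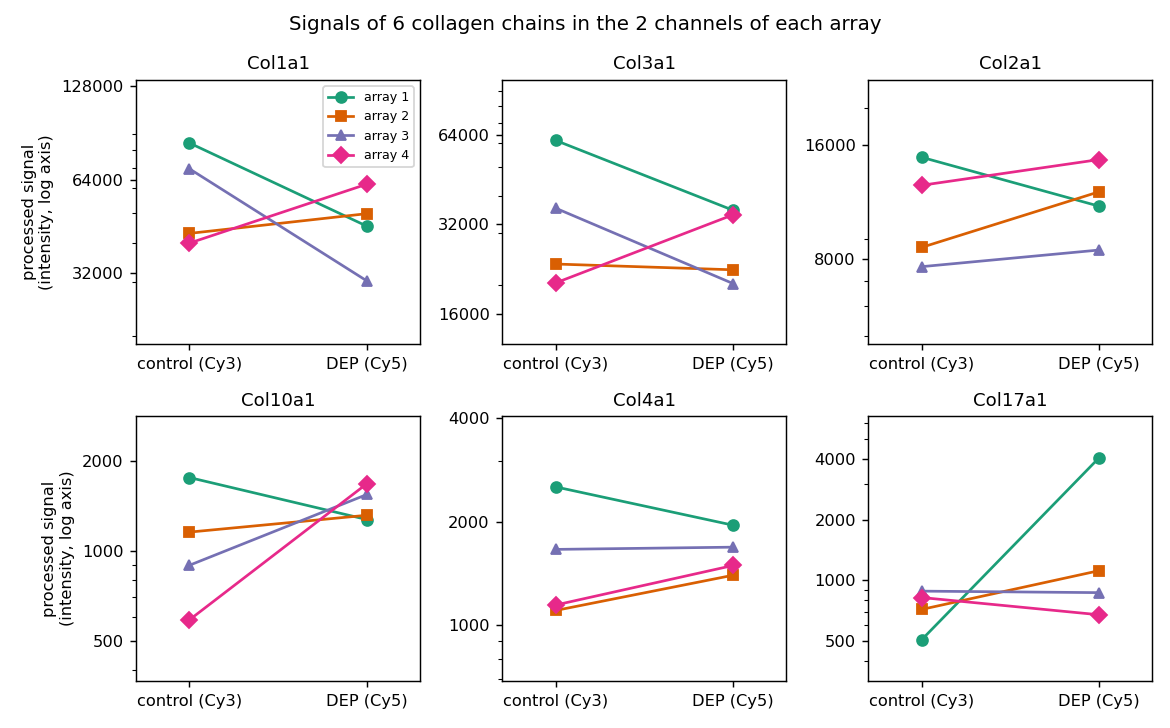
Processed signal (intensity, log axis) of Col1a1, Col3a1, Col2a1, Col10a1, Col4a1 and Col17a1 in the control channel (Cy3) and the channel labelled DEP (Cy5), with a line joining the 2 channels of each array; signals were normalized within an array and not between arrays. Lines of opposite slope appear in every panel, and the steepest is that of Col17a1 on array 1.

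Cartilage chains shared a low ratio on array 1 alone. Their median ratio was -0.61, 0.28, 0.15 and 0.09 on arrays 1 to 4, with 0, 6, 4 and 5 of 7 chains above 0. The median of their means was -0.08, which turned to 0.31 after normexp and centring, and the class medians had an SD of 0.40 over arrays. Col2a1, the type II chain of cartilage and of the tectorial membrane, had ratios of -0.43, 0.49, 0.15 and 0.23 and a mean of 0.11 ± 0.39 (SD, n = 4; limma's adjusted p = 0.761). After normexp and centring its mean was 0.62, above 0 on all 4 arrays, with an unadjusted p of 0.00565 and an adjusted p of 0.0506, a setting in which 37.1% of all genes had an unadjusted p under 0.05. Its signals ran from 8444 to 14610 in the DEP channel and from 7634 to 14810 in the control channel, and DEP was the lower channel on array 1 alone.

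The type XI chains Col11a1 and Col11a2, which sit in the core of type II fibrils, had means of -0.14 ± 0.50 and -0.08 ± 0.32 and were also lowest on array 1, at -0.84 and -0.46. The means turned to 0.11 and 0.32 after normexp and centring and to 0.09 and 0.05 without array 1. Type IX collagen decorates the surface of these fibrils. Its Col9a1 chain had ratios of -0.61, 0.78, 0.48 and 0.22, and its Col9a2 chain had -0.62, 0.13, -0.06 and -0.38. Col9a3 was not well above background in the control channel of 1 array, and its mean was -0.14 ± 0.49. A second Col9a1 probe, which was well above background in the control channel of 1 array and in the DEP channel of none, had a mean of -0.67 with an unadjusted p of 0.00722 and an adjusted p of 0.158, opposite in sign to the mean of 0.22 of the brighter probe.

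Col10a1, the chain of hypertrophic cartilage, had the widest ratios of the cartilage class, at -0.47, 0.19, 0.79 and 1.51, and a mean of 0.50 ± 0.84 (SD, n = 4; limma's adjusted p = 0.461). Its signals were 1273, 1316, 1544 and 1678 in the DEP channel and 1759, 1156, 895.7 and 588.7 in the control channel, so DEP was the lower channel on array 1 and the higher on the others. Without array 1 the mean was 0.83 with a limma unadjusted p of 0.0496 and an adjusted p of 0.282. It was 0.61 without array 2, 0.41 without array 3 and 0.17 without array 4. Its upstream window at chr10:34389731-34389980 on the plus strand is shown because it is the cartilage chain with the largest mean.
Col10a1: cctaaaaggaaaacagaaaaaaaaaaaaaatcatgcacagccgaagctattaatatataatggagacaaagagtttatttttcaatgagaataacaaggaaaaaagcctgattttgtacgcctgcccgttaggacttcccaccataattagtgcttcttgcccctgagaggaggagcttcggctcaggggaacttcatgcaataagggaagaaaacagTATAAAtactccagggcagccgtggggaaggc
The window holds 1 TATAAA, which starts 32 bases before the start site.

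Basement membrane chains had medians that varied little between arrays. Their median ratio was -0.19, 0.24, -0.04 and 0.04 on arrays 1 to 4, with 3, 7, 4 and 4 of 8 chains above 0. The median turned to 0.01 on array 1 and -0.03 on array 4 after normexp and loess, and to 0.05 on array 3 after normexp and centring. The class medians had an SD of 0.18 over arrays, the smallest of the 3 main classes. The vessel and tissue-wide chains Col4a1 and Col4a2 had ratios of -0.37, 0.34, 0.02 and 0.38 and of -0.31, 0.25, -0.09 and 0.24. Their means of 0.09 ± 0.35 and 0.02 ± 0.27 were within the spread between arrays. After normexp and centring the means were 0.40 and 0.29. Col4a1 then had a limma unadjusted p of 0.0353 and an adjusted p of 0.116, where 37.1% of all genes had an unadjusted p under 0.05.

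The remaining type IV chains belong to specialised membranes such as those of the kidney glomerulus and the cochlea. Col4a6 had the smallest spread of any chain, with ratios of 0.35, 0.23, 0.21 and 0.09 and a mean of 0.22 ± 0.10 (SD, n = 4; limma's adjusted p = 0.329). It lay above 0 on every array in the authors' ratios and after normexp with loess or with centring. The mean was smaller in those settings, at 0.08 and 0.11. A second Col4a6 probe, well above background on no array, had a mean of 0.78 over 3 arrays, and the mean of the probes was 0.50. Its neighbour Col4a5 had ratios of 0.47, 0.52, -0.31 and -0.15. Col4a4 had a mean of -0.07 ± 0.23. Col4a3 had ratios of 0.29, 0.61, 1.56 and 0.14 and the largest mean of the class, 0.65 ± 0.64, but its probe was not well above background in the control channel on any array, and its mean was -0.01 after normexp and centring.

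Types XV and XVIII are proteoglycans of basement membranes, and type XVIII is the source of the fragment endostatin. Col18a1 had ratios of -0.38, -0.53, -0.38 and -0.01 and a mean of -0.32 ± 0.22 (SD, n = 4), with the smallest unadjusted p of the brightest probes, 0.0549, and a limma adjusted p of 0.28. After normexp and centring its ratios were -0.14, -0.45, 0.11 and 0.29, with a mean of -0.04. A second, fully measured Col18a1 probe had a mean of 0.02 ± 0.20, so the probes of this gene differ in their ratios. Col15a1 had ratios of -0.07, 0.22, -1.96 and -1.37 and the lowest mean of any chain, -0.79 ± 1.04 (SD, n = 4; limma's adjusted p = 0.36). Leaving out array 1 or array 2 put its mean past 2-fold, at -1.04 and -1.13, with unadjusted p of 0.0978 and 0.0559. Without array 3 its mean was -0.41, and it was -0.39 after normexp and loess and -0.43 after normexp and centring. A dimmer Col15a1 probe, well above background in the DEP channel of 1 array, was below 0 on all 4 arrays. Its mean was -0.73, with a limma unadjusted p of 0.0048 and an adjusted p of 0.145. The last of its probes, well above background in the DEP channel of 3 arrays and the control channel of 1, had a mean of -0.10 over 3 ratios and was above 0 on array 2.

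**Figure D3:**
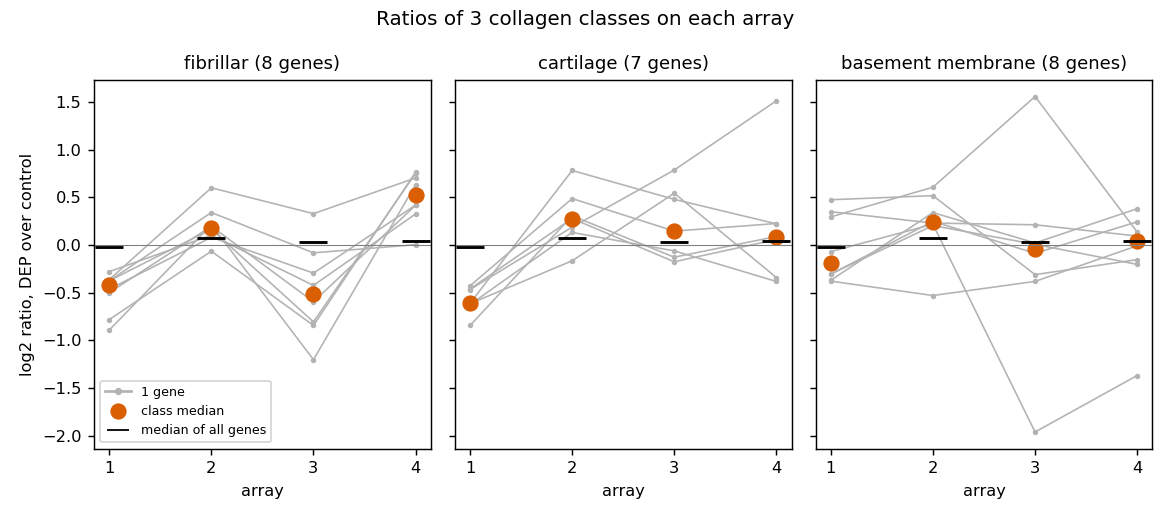
Log2 ratio, DEP over control, on arrays 1 to 4 for the fibrillar (8), cartilage (7) and basement membrane (8) chains, with a grey line per gene to join its own values, a filled circle at the class median and a black bar at the median of all genes on that array. In these ratios fibrillar medians are below 0 on arrays 1 and 3, which both turned above 0 after normexp and centring, cartilage medians are below 0 on array 1 alone, and basement membrane medians stay between -0.19 and 0.24.

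The 3 main classes did not separate when their medians were compared on the same array. Fibrillar minus cartilage was 0.19, -0.10, -0.65 and 0.44 on arrays 1 to 4, a mean of -0.03 ± 0.47 (SD, n = 4). Fibrillar minus basement membrane was -0.23, -0.06, -0.47 and 0.48, a mean of -0.07 ± 0.40. Cartilage minus basement membrane was -0.42, 0.04, 0.19 and 0.05, a mean of -0.04 ± 0.27. Each mean difference was smaller than its spread between arrays, and each changed sign between arrays. With normexp and centring the fibrillar median was above the basement membrane median on all 4 arrays, by 0.05, 0.14, 0.11 and 0.65. An exact sign-flip test of 4 differences cannot give a p under about 0.13, and none was run on the classes.

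Beaded filament chains had medians of -0.25, 0.19, -0.30 and 0.52 on arrays 1 to 4, which after normexp and centring were above 0 on every array. Type VI collagen makes fine filaments around cells in muscle, tendon and vessels, and its chains Col6a1, Col6a2 and Col6a3 had means of 0.15 ± 0.38, 0.18 ± 0.37 and -0.29 ± 0.48. The ratios of Col6a1 were -0.09, 0.27, -0.22 and 0.63, those of Col6a2 were -0.19, 0.19, 0.02 and 0.67, and those of Col6a3 were -0.61, -0.14, -0.73 and 0.31. Each was highest on array 4. After normexp and centring their means were 0.63, 0.46 and 0.09, and Col6a1 was above 0 on all 4 arrays with an unadjusted p of 0.00545 and an adjusted p of 0.0501. Col6a5 had a mean of -0.38 ± 0.44 and was below 0 on 3 of 4 arrays. Col6a6 was well above background on no array, and Col6a4 had a ratio on 2 arrays or fewer for each of its probes.

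Fibril-associated chains, which bind to fibrils without forming them, had means between -0.26 and 0.18, and the median of their means, 0.00 in the authors' ratios, was 0.31 after normexp and centring. Col14a1 had -0.57, 0.07, -0.43 and 0.74 and a mean of -0.05 ± 0.59, with the signs of the fibrillar chains. Col16a1 had -0.46, -0.14, -0.68 and 0.25 and a mean of -0.26 ± 0.40, which turned to 0.33 after normexp and centring. Col22a1, which is found at the junction of muscle and tendon, had a mean of 0.04 ± 0.37, which turned to -0.06 without array 2 or array 4. After normexp and centring its mean was 0.39 with a limma unadjusted p of 0.0256, where 37.1% of all genes had one under 0.05. Col20a1 had a mean of 0.18 ± 0.29. Col20a1 was the fibril-associated chain with its highest ratio on array 1, at 0.46.

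The collagens that anchor epithelia had their highest ratio on array 1, where in the authors' ratios all 8 fibrillar chains were below 0. Col17a1, the hemidesmosome collagen that fixes basal epithelial cells to the basement membrane, had signals of 4056, 1118, 869.9 and 675.8 in the DEP channel and of 508.6, 718.5, 885.0 and 822.6 in the control channel. DEP was the higher channel on arrays 1 and 2 and the lower on arrays 3 and 4. Its log2 ratios were 3.00, 0.64, -0.02 and -0.28, with the highest mean of any chain, 0.83 ± 1.49 (SD, n = 4; limma's adjusted p = 0.478). Without array 1 its mean was 0.11.

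Col7a1, the chain of the anchoring fibrils beneath stratified epithelium, had its arrays in the same order, with ratios of 1.54, 0.21, -0.34 and -0.74 and a mean of 0.17 ± 0.99, which turned to -0.29 without array 1. The upstream windows of both are shown because these epithelial chains were highest on array 1, at chr19:47692043-47692292 on the minus strand for Col17a1 and chr9:108953336-108953585 on the plus strand for Col7a1.
Col17a1: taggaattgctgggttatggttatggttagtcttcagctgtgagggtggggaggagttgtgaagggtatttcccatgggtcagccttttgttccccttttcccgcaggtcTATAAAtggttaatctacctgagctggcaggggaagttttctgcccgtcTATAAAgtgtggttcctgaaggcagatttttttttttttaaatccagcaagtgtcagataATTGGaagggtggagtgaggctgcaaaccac
Col7a1: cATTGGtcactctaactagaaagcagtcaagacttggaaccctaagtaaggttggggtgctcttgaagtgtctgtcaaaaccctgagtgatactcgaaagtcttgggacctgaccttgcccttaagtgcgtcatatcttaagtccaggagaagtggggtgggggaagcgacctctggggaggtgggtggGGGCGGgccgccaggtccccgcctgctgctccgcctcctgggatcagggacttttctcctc
The Col17a1 window holds 2 TATAAA and 1 CCAAT read on the reverse strand, and the Col7a1 window holds 1 GGGCGG and 1 CCAAT read on the reverse strand.

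Some epithelial genes, named after their values had been seen, were also highest on array 1 and lowest on array 4. Krt5 and Krt14, the keratins of basal epithelial cells, had ratios of 2.17, 0.35, 0.08 and -1.24 and of 2.95, 0.57, 0.92 and -1.80. Lama3 and Lamb3, laminin chains of epithelial basement membranes, had ratios on array 1 of 1.37 and 2.53 and on array 4 of -0.49 and -0.76. The 10 listed epithelial markers as a whole did not share this order, with medians of -0.04, 0.31, -0.15 and -0.54, and 4 of 10 were above 0 on array 1. Muc5b, a mucin of gland and airway cells, was 1 of 10 past 2-fold, beside 6.75% of all genes, with a mean of -1.41 ± 0.85 and a limma adjusted p of 0.167. Their summed signal ran from 140600 to 260900 in the DEP channel and from 137000 to 253600 in the control channel, and 0 of them were at background in a channel on all arrays. The part of epithelial content in the ratios of Col17a1 and Col7a1 was not tested.

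The other transmembrane chains gave mixed values. Col13a1, found at the neuromuscular junction, had -0.71, -0.04, -0.79 and 0.55 and a mean of -0.25 ± 0.63. Col23a1 had a ratio of 0.88 on array 1 and a mean of 0.16 ± 0.50, and all 3 of its probes were above 0.50 on that array. Col25a1, a collagen of neurons, had 0.07, 0.89, -1.18 and -0.62 and a mean of -0.21 ± 0.89. Type VIII collagen, a short network former of vessel walls and Descemet's membrane, had means of 0.09 ± 0.36 for Col8a1 and -0.21 ± 0.51 for Col8a2. Col26a1 had a mean of 0.13 ± 0.65. Col28a1 was well above background on 3 arrays in each channel and had a mean of 0.44, less than its spread, that rested on a ratio of 1.95 on array 4. Its mean was -0.06 without that array, 0.04 after normexp and loess and -0.06 after normexp and centring.

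Chains that are built into the same molecule differed little on each array for some pairs and more for others. Col4a1 and Col4a2, which are read in opposite directions from start sites 21 bases apart on chromosome 8, differed by -0.06, 0.09, 0.11 and 0.14 on arrays 1 to 4, a mean of 0.07 ± 0.09 (SD, n = 4). Col6a1 and Col6a2, neighbours on chromosome 10, differed by -0.03 ± 0.15. Col4a5 and Col4a6, whose start sites lie 1343 bases apart on chromosome X, differed by 0.13, 0.29, -0.52 and -0.25, a mean of -0.09 ± 0.37 from differences of opposite sign. Col1a1 and Col1a2, on different chromosomes, differed by -0.52, 0.05, -0.40 and -0.12, a mean of -0.25 ± 0.26.

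Some partners differed in 1 direction on all arrays. Col6a2 exceeded Col6a3 by 0.42, 0.33, 0.75 and 0.36, a mean of 0.47 ± 0.19. Col2a1 exceeded Col11a1 by 0.42, 0.18, 0.27 and 0.14, a mean of 0.25 ± 0.12. Col9a1 exceeded Col9a2 by a mean of 0.45 ± 0.30, and Col8a1 exceeded Col8a2 by 0.30 ± 0.32. Col4a3, which was not fully measured, exceeded Col4a4 by 0.60, 0.40, 1.55 and 0.34, a mean of 0.72 ± 0.56. These are differences of log2 ratios between probes, chosen from 12 pairs, and they were not tested.

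**Figure D4:**
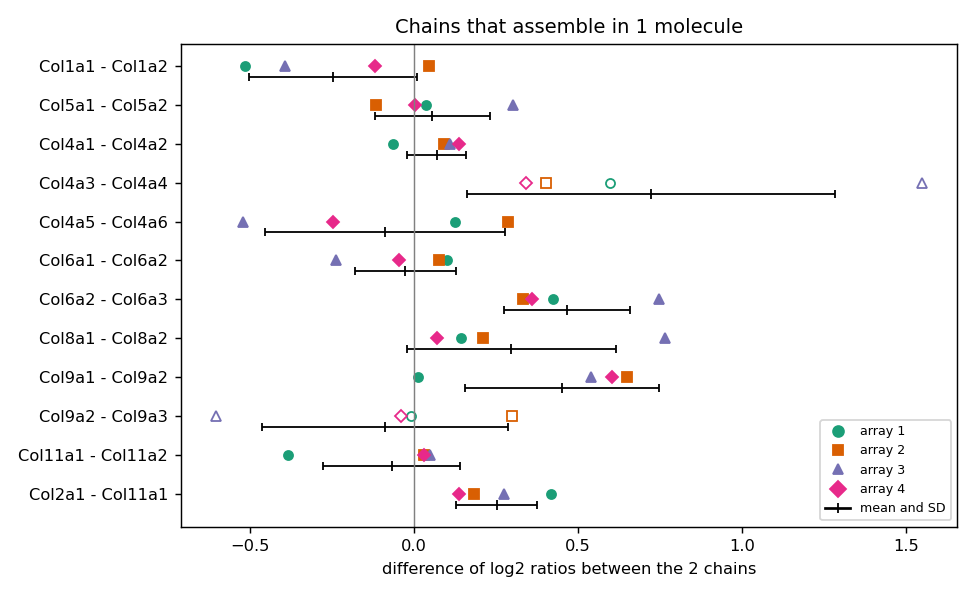
Difference of the log2 ratios of 2 chains that assemble in 1 molecule on each array, for 12 pairs, with the mean and SD over arrays below the points; open symbols are pairs with a chain that was not fully measured. Col4a1 and Col4a2 differ by at most 0.14 on any array, while Col6a2 lies above Col6a3 on all 4.

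The Col4a1 probe is spotted 10 times on each array, and the SD of the ratio over its spots was 0.03, 0.03, 0.04 and 0.02 on arrays 1 to 4, a spread between spots that leaves out labelling and hybridisation. Among 6 genes with at least 2 fully measured probes the means of the probes differed by 0.02 for Col23a1 up to 0.34 for Col18a1.

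The 250 bases before the start site were available for 35 of the 43 collagen genes, some with more than 1 start site. GGGCGG, on either strand, was found for 21 of 35 collagen genes, beside 32.7% of all 32851 promoters of that length. CCAAT was found for 13 of 35 beside 33.8%, and TATAAA for 5 of 35 beside 12.4%. GGGCGG was found for 4 of 6 fibrillar, 3 of 5 cartilage and 4 of 7 basement membrane genes. CCAAT was found for 2 of 6, 2 of 5 and 4 of 7 of them, and TATAAA for 1 of 6, 2 of 5 and 0 of 7. A gene counted where any of its start sites had the match.

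Lists of genes that make, bind and remove collagen had medians that changed sign between arrays, while some of their genes did not. Enzymes, chaperones and other genes listed for collagen hydroxylation and folding had medians of -0.10, 0.10, -0.20 and 0.21 over 20 genes on arrays 1 to 4. Of them 0 were past 2-fold, beside 6.75% of all genes. Tmem38b and Plod2 had the largest means of the list, 0.63 ± 0.34 (SD, n = 4; limma's adjusted p = 0.178) and -0.43 ± 0.59. Tmem38b was well above background in the control channel of 2 arrays only. Serpinh1, the collagen-specific chaperone, which was named after its values had been seen, had ratios of -0.88, 0.09, -0.70 and 0.20, with the signs of the fibrillar chains. Proteases and oxidases that trim procollagen and crosslink fibrils had medians of -0.22, 0.04, -0.13 and 0.46 over 12 genes. Tll1, a procollagen C-proteinase of the tolloid family, was 1 of 12 past 2-fold, beside 6.75% of all genes, with ratios of -2.11, -2.49, -0.51 and -0.42, a mean of -1.38 ± 1.07 and a limma adjusted p of 0.212.

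Small proteoglycans and glycoproteins that bind fibrils were highest on array 4, with medians of -0.33, 0.13, -0.08 and 0.96 over 13 genes. Kera and Sparc had the largest means, 0.41 ± 0.67 and 0.27 ± 0.66. Collagen receptors had medians of -0.34, 0.17, -0.51 and 0.01 over 9 genes, with means of -0.54 ± 0.29 for Itga2, which was well above background on no array, and of -0.38 ± 0.52 for Itga1. Collagenases and related proteases had medians of -0.15, 0.11, -0.16 and 0.71 over 7 genes, with means of 0.44 ± 0.43 for Mmp9 and, at background on all arrays, of -0.92 ± 0.34 for Mmp1a. The fibril-binding, receptor and collagenase lists had 0 genes past 2-fold, beside 6.75% of all genes, and 0 with an adjusted p under 0.05, and an unadjusted p under 0.05 was found for 0, 1 and 1 of their genes, beside 18.7% of all genes.

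Other matrix genes of cartilage had, like the cartilage chains, their lowest median on array 1, and those of basement membrane did not. Non-collagen cartilage matrix genes had medians of -0.31, 0.09, 0.36 and 0.08 over 15 genes. Sox5, a transcription factor of chondrocytes, had a mean of -0.90 ± 0.28 and was below 0 on all 4 arrays, with a limma adjusted p of 0.112. Matn3, a cartilage matrilin, was past 2-fold with a mean of 1.27 ± 0.60, but it was well above background in the control channel of 1 array only. Non-collagen basement membrane genes had medians of 0.17, 0.27, 0.00 and -0.05 over 15 genes, with the largest means for Lamb3, 0.67 ± 1.37, and Hspg2, -0.63 ± 0.59.

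Markers of bone and connective tissue cells had, like the fibrillar chains, their highest median on array 4. So did those of skeletal muscle, macrophages and osteoclasts, neurons, astrocytes and myelin. Osteoblast and osteocyte genes had medians of -0.35, 0.17, 0.15 and 0.49, and all 11 were above 0 on array 4, with a summed signal of 116500 to 196400 in the DEP channel and 134500 to 253600 in the control channel. Tendon and fibroblast genes had medians of -0.16, 0.16, -0.13 and 0.59, and all 10 were above 0 on array 4, with sums of 37730 to 64420 and 30550 to 73390. No gene of either list was at background in a channel on all arrays. On array 4 all 10 skeletal muscle genes and all 8 macrophage and osteoclast genes were above 0 too, and the median of all genes was 0.04. Endothelial genes had medians of -0.16, 0.09, -0.38 and -0.10, and genes of the tectorial membrane and inner ear had 3 of 9 fully measured and medians of -0.34, 0.70, 0.54 and -0.30. Skeletal muscle genes had -0.72, -0.42, 0.75 and 0.80, erythroid genes -0.79, 0.27, 0.39 and 0.31, neutrophil genes -1.01, 0.02, 0.81 and 0.38, and macrophage and osteoclast genes -0.04, 0.10, 0.23 and 0.62. Astrocyte genes had -2.37, -0.85, -0.19 and 0.05 and myelin genes -0.80, -0.17, -0.02 and 0.32. The part of tissue composition in the collagen ratios was not tested.

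**Figure D5:**
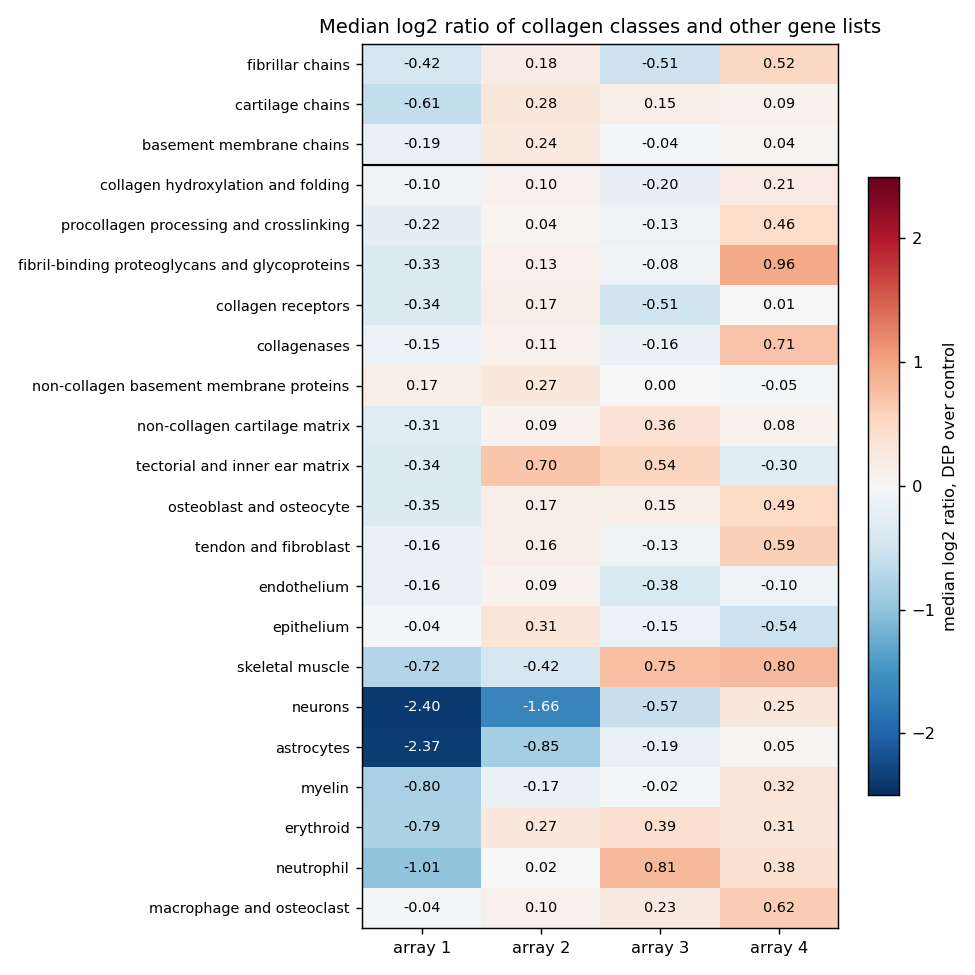
Median log2 ratio, DEP over control, on each of the 4 arrays for the 3 main collagen classes, above the line, and for 19 lists of other genes, below it; colour and printed value show the same median. On array 4 the medians are above 0 for all 3 collagen classes and for most lists. Those of non-collagen basement membrane, inner ear, endothelial and epithelial genes are below 0 on that array. Neuronal and astrocyte genes are farthest below 0 on array 1.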

How the data were processed

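Ear RNA was hybridised to 4 two-colour 4x44K arrays on 1 slide, taken as 4 replicates of 1 comparison. The authors read the spots with Feature Extraction 10.10.1.1. The deposited channel intensity had its background subtracted and the dyes normalized in each array, which holds the middle of the ratios of an array near 0. The ratio deposited for each spot is log10 of Cy5 over Cy3. A table of the authors' log10 ratios with fewer digits served as an alternative. The labels put both treatments under Cy5 and none under Cy3, so the source names decided the groups. No value column lacked a sample.

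The deposited log10 ratios were converted to log2. Control spots, spots marked as non-uniform or as population outliers, and spots with a ratio of 0, which stands for none, were dropped, and spots of a probe were averaged. Probes were named by accession in the RefSeq table of GRCm38.p6, used for names and neighbours only, since the files are of another build. Promoter coordinates are those of the RefSeq promoter table. All 31577 probes with at least 3 ratios entered a limma 3.58.1 fit (R 4.3.3; lmFit and eBayes on an intercept, prior degrees of freedom 1.98), tested two-sided against 0 and adjusted over the whole table by Benjamini-Hochberg. A gene was represented by its brightest tested probe. The fit was tested on simulated data. The 4 arrays and, for dim probes, the background limit the precision. Python 3.11.15 with pandas 2.3.3, numpy 2.4.6, and for plots matplotlib 3.10.9, made the tables.

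The alternatives were normexp (offset 50) on the median signals with loess or with arrays centred at their medians, the authors' ratio table, filters that need 1 channel or both above background, marked spots kept, an intensity trend in eBayes, ordinary least squares, the mean of the probes of a gene, and each array left out, where 2 ratios were enough. The text names all fibrillar, cartilage and basement membrane chains, every fully measured chain of the other classes, and, of lists close to collagen, up to 4 genes past 2-fold with a channel above background throughout, or else up to 2 with the largest mean. Other genes are named as chosen after their values were seen. The members, classes and lists were chosen with earlier results of these data known. Protein sequences were not used here, so the planned count of glycine repeats was not made.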

Additional observations from a re-analysis of the deposited data

How the results depend on the processing

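Counts of collagen chains past a limit changed with the scaling and with the arrays left out. With normexp and centring of each array on its median, 2 chains were past 2-fold (Col1a2 and Col17a1), 8 had an unadjusted p under 0.05 (Col1a2, Col2a1, Col4a1, Col6a1, Col6a2, Col11a2, Col13a1 and Col22a1), 1 probe had an adjusted p under 0.05 and 15 chains had the same sign on all arrays, against 0, 0, 0 and 3 with the authors' ratios. Over all genes the same setting gave 2.36% past 2-fold, 37.1% with an unadjusted and 11.6% with an adjusted p under 0.05 and 46.4% with the same sign, against 6.75%, 18.7%, 0% and 28.7%. That setting changed the sign of the mean for 17 of 41 chains (Col1a1, Col1a2, Col3a1, Col4a3, Col5a1, Col5a2, Col5a3, Col6a3, Col6a6, Col8a2, Col9a2, Col11a1, Col11a2, Col14a1, Col16a1, Col27a1 and Col28a1) and put the median of all genes at 0.12, against 0.03. An unadjusted p under 0.05 was found for 1 chain with normexp and loess, with the filter on 1 channel, with the filter on both channels, with the intensity trend (Col18a1 each time) and with ordinary least squares (Col4a6), beside 16.1%, 15.8%, 15.5%, 19.0% and 15.5% of all genes. With 1 array left out, 1 to 3 chains were past 2-fold, 0 to 4 had an unadjusted p under 0.05, 5 to 11 had the same sign on the remaining arrays and 0 had an adjusted p under 0.05, beside 5.92% to 10.2%, 11.2% to 18.8%, 35.2% to 46.1% and 0% of all genes. The 4 chains without array 1 were Col10a1, Col24a1, Col6a6 and Col9a1, and the 4 without array 4 were Col18a1, Col4a3, Col6a4 and Col6a5. Past 2-fold were Col15a1 without array 1 or 2, Col17a1 without array 3 or 4, and Col6a4 and Col19a1 where 2 ratios sufficed, Col6a4 without array 3 or 4 and Col19a1 without array 1 or 4. Leaving out array 1, 2, 3 or 4 changed the sign of the mean for 12, 3, 6 and 7 chains. Medians and differences of the 3 main classes moved by less than their spread between arrays under every alternative run, but several changed sign. Normexp and centring turned the fibrillar median from -0.07 to 0.34 and the cartilage median from -0.08 to 0.31. It turned the mean differences to 0.05 for fibrillar minus cartilage, 0.24 for fibrillar minus basement membrane and 0.19 for cartilage minus basement membrane. The fibrillar median was 0.02 without array 1 or array 3. The cartilage median was 0.09 without array 1 and 0.02 with the filter on both channels. The basement membrane median turned from 0.06 to -0.02 without array 2 or array 4. Fibrillar minus cartilage was 0.18 and fibrillar minus basement membrane 0.06 without array 3. Cartilage minus basement membrane was 0.09 without array 1. The cause of these shifts was not tested. The class medians by array and the order of arrays under other scalings were added after the data had been seen. Each ratio pairs the 2 extracts of its array. No paired analysis was possible because, beyond that, the labels give 1 group with no further numbers to pair. Probes dim in a channel, such as those of Col4a3 and Col6a6, limit what can be said of those chains.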
